A study of Bos taurus with 6 samples.

Results

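Subcluster 1 is a group of T-cells from the wall of the distal pulmonary arteries (dPAs) of calves, and the study reads it as CD4+. Its members are the cells that carry call 1 in the authors' clustering of the dPA T-cells. They number 270 of 877 T-cells, beside 268 cells in subcluster 2, 173 in subcluster 3 and 166 in subcluster 4. In the deposited expression table the genes appear as numbered rows with no names, so that the 3 markers given for the subcluster, CD3E, ZAP70 and CD4, could not be looked up. The CD4+ label is therefore the study's own and was not checked against the data, and each row below is called by its number alone.

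The dPAs, vessels under 2 mm across, came from male Holstein dairy calves aged 2 weeks. Control (CO) calves were compared with calves with pulmonary hypertension (PH), which had spent 14 days in hypoxia. The vessels were dissociated and their cells sequenced in droplets, where a random tag (unique molecular identifier, UMI) on each mRNA lets amplified copies be collapsed into 1 count. T-cells of 2 CO and 3 PH calves were analysed, each calf giving 1 library, and CO replicate 3 was not analysed here.

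CD4+ T-cells recognise peptides that other cells present on MHC class II, and CD4 binds that class II molecule beside the T-cell receptor. CD3E is a signalling chain of the receptor complex, and ZAP70 is the kinase that docks on the complex once the receptor is engaged. CD4+ cells help other immune cells through cytokines or, as regulatory T-cells, restrain them. In PH such cells are found around remodelled pulmonary vessels.

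Subcluster 1 was found in all 5 calves, at very unequal numbers. CO replicate 1 gave 5 of its 50 T-cells to subcluster 1, CO replicate 2 gave 148 of 437, PH replicate 1 gave 36 of 157, PH replicate 2 gave 68 of 217 and PH replicate 3 gave 13 of 16. CO replicate 2 alone held 54.8% of the 270 cells, so that any mean over cells leans on this calf. The values below are therefore given calf by calf. No barcode was shared between libraries (0 shared).

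The share of a calf's T-cells in subcluster 1 was 10.0% in CO replicate 1 (95% exact binomial interval 3.33 to 21.8%) and 33.9% in CO replicate 2 (29.4 to 38.5%). In the PH calves it was 22.9% (16.6 to 30.3%), 31.3% (25.2 to 38.0%) and 81.2% (54.4 to 96.0%) in replicates 1, 2 and 3. These intervals cover counting error only. The lowest share was in a CO calf and the highest in a PH calf, and the ranges of the 2 groups overlapped between 22.9 and 33.9%. CO calves averaged 21.9% ± 16.9 (SD, n = 2) and PH calves 45.2% ± 31.5 (SD, n = 3), and the difference of 23.2 percentage points did not pass a two-sided exact permutation test over calves (p = 0.6, adjusted p = 0.9 over the 5 comparisons of this kind). The smallest p that 2 against 3 calves allow is 0.1. The value rested on the calf with 16 T-cells: without PH replicate 3 the difference was 5.20 percentage points. Pooled over cells rather than calves, subcluster 1 made up 31.4% of the CO and 30.0% of the PH T-cells. Each permutation p is the share of regroupings of these calves with a mean difference at least as large in either direction.

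**Figure D1:**
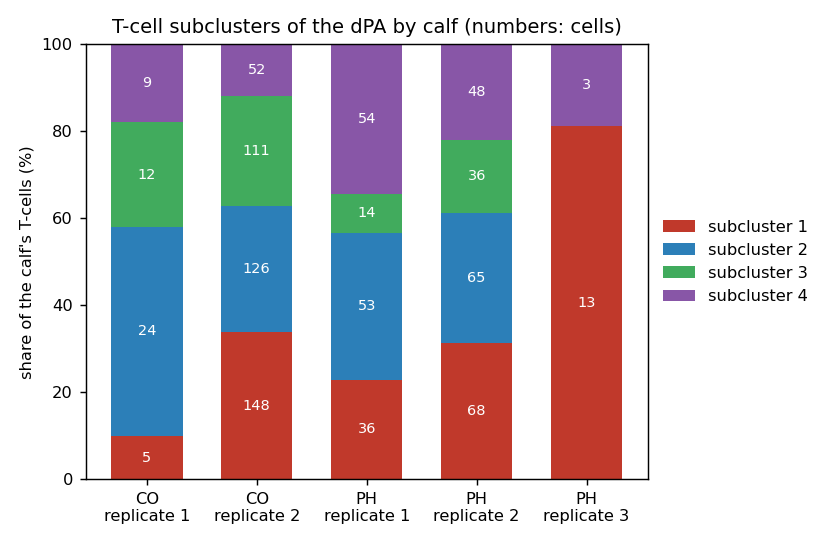
Makeup (%) of the T-cells of each calf by subclusters 1 to 4, stacked to 100%, with the number of cells printed in each block. Subcluster 1 runs from 10.0% (5 cells) in CO replicate 1 to 81.2% (13 cells) in PH replicate 3, and the other 3 calves lie between 22.9 and 33.9%.

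Subclusters 1 and 2 are the CD4+ subclusters of the study. Among the cells of both, subcluster 1 took 17.2% in CO replicate 1, 54.0% in CO replicate 2, 40.4% in PH replicate 1, 51.1% in PH replicate 2 and 100% in PH replicate 3, which had no cell in subcluster 2. The CO and PH calves overlapped here too. The difference of 28.2 percentage points (35.6% ± 26.0 in CO, n = 2; 63.9% ± 31.8 in PH, n = 3; SD) did not pass the exact permutation test (p = 0.6). Leaving out 1 calf at a time gave 9.84 points without CO replicate 1, 10.2 without PH replicate 3 and 46.6 without CO replicate 2, with the others between.

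The cells of subcluster 1 held more RNA molecules than the other T-cells of the same calf. The median was 11419 UMIs per cell in CO replicate 1, against 6674 in its other T-cells. It was 6689 against 5478 in CO replicate 2, 6904 against 3309 in PH replicate 1, 4712 against 3420 in PH replicate 2, and 10990 against 7452 in PH replicate 3. Subcluster 1 was thus the deeper in 5 of 5 calves, and also in 4 of 4 calves against subcluster 2 and in 4 of 4 against subcluster 3. The number of genes with a UMI went the same way in 5 of 5 calves, with medians of 1320 to 2593 in subcluster 1 and 1117 to 2097 in the other T-cells. Over its 270 cells the depth ran from 705 to 27584 UMIs, with 1927209 UMIs in all. Clusters were formed from expression values, so that these depths are a description of the cluster, and depth is itself part of what can be detected in a cell.

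Per UMI, subcluster 1 cells showed fewer genes. For each 1000 UMIs they had a median of 218 genes in CO replicate 1 (324 in its other T-cells), 248 in CO replicate 2 (293), 246 in PH replicate 1 (348), 286 in PH replicate 2 (328) and 230 in PH replicate 3 (244). The value was lower in 5 of 5 calves. Deeper cells have fewer new genes per UMI in any library, so the comparison was repeated in cells of middle depth, 3107 to 7300 UMIs, the middle 50% of all T-cells. At that depth it was still lower in the 3 calves with more than 1 subcluster 1 cell in the range. CO replicate 2 is the closest match, with 73 subcluster 1 cells at a median of 5461 UMIs and 166 other T-cells at 5451.5 UMIs: the former had 1408 genes and the latter 1533. In PH replicates 1 and 2 the subcluster 1 cells were the deeper also within the range (6382.5 against 5173 UMIs and 4912 against 4198 UMIs).

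**Figure D2:**
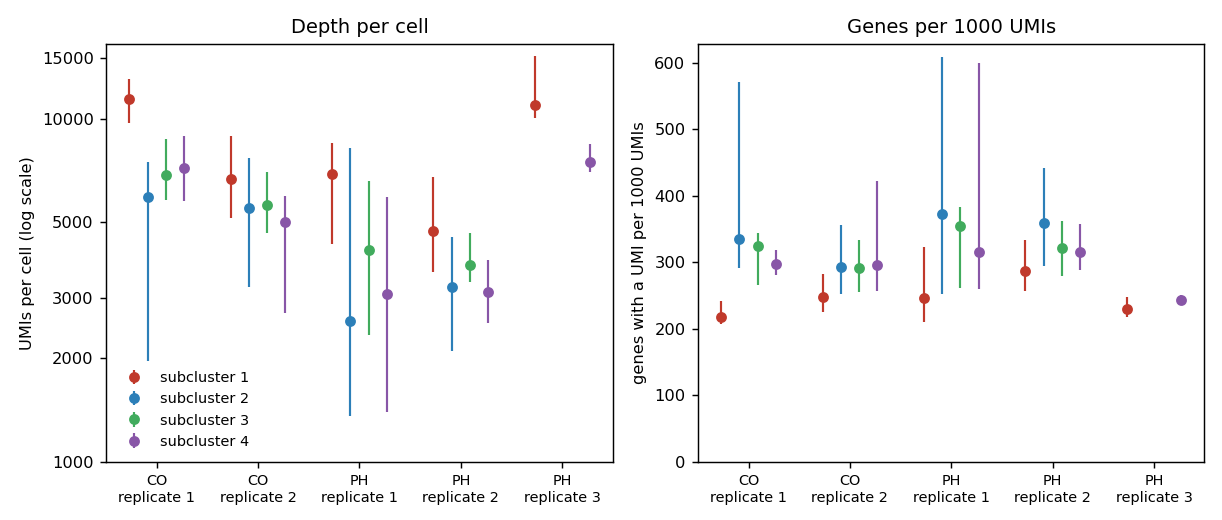
UMIs per cell (left, log scale) and genes with a UMI per 1000 UMIs (right) in each calf and subcluster; points are medians over cells and bars run from the 25th to the 75th percentile. Subcluster 1 has the highest median depth and the lowest median of genes per 1000 UMIs in each of the 5 calves.

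The mitochondrial share of UMIs, which is high in damaged cells, was low in most of subcluster 1. Its median was 2.76 and 3.17% in CO replicates 1 and 2 and 2.66, 4.42 and 1.55% in PH replicates 1, 2 and 3. It was below subcluster 2 in 4 of 4 calves, with differences of -0.813 to -0.272 percentage points, but above the other T-cells as 1 group in 3 of 5 calves and below them in 2. In cells of middle depth it was below subcluster 2 in 2 of 3 calves. Against subcluster 4 it was higher in 4 of 5 calves, and in 3 of 3 at middle depth. CO and PH overlapped in both measures of cell quality. The median depth on the log2 scale was 13.09 ± 0.55 in CO and 12.79 ± 0.61 in PH (SD, n = 2 and 3, exact permutation p = 0.6). The mitochondrial medians averaged 2.96% ± 0.288 in CO and 2.88% ± 1.45 in PH (SD, n = 2 and 3, exact permutation p = 0.9). Relative to the other T-cells of each calf, the log2 depth of subcluster 1 differed between PH and CO by 0.16 (exact permutation p = 0.7).

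Few cells of subcluster 1 were called in G1 by the authors' cell cycle scores, and calves differed. G1 was called in 1 of 5 cells in CO replicate 1 (20%), 8 of 148 in CO replicate 2 (5.41%), 7 of 36 in PH replicate 1 (19.4%), 3 of 68 in PH replicate 2 (4.41%) and 4 of 13 in PH replicate 3 (30.8%). Each group held a calf near 5% and a calf at 20% or more. The means were 12.7% ± 10.3 in CO and 18.2% ± 13.2 in PH (SD, n = 2 and 3, exact permutation p = 0.8). The share was below that of the other T-cells of the calf in 4 of 5 calves, among them CO replicate 2 (17.6% in the others) and PH replicate 2 (22.1%). Against subcluster 3 alone it was lower in 2 calves and higher in 2. At middle depth it stayed below the others in these calves (5.48 against 17.5% and 2.27 against 17.6%), while in PH replicate 1 it was above them, at 41.7% of 12 cells against 8.11%. The median G2/M score of subcluster 1 exceeded that of subcluster 2 in 4 of 4 calves, by 0.0034 to 0.049. At middle depth it did so in 2 of 3 calves, with a difference of -0.061 in PH replicate 1. Such calls read small score differences, and free RNA enters them as well; its part in them was not tested. They are reported as calls and not as a measure of division.

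Of the 16514 rows of the table, 13663 had a value above 0 in some T-cell and 12057 (88.2%) in some subcluster 1 cell. Broad expression was rarer. In subcluster 1, 6250 rows were above 0 in at least 5% of the cells, 770 in at least 50% and 197 in at least 90%, and 4293 rows were seen in the subcluster 1 cells of all 5 calves. Values are natural logs of a corrected count plus 1, in which the authors rescaled UMIs toward a common depth. The median sum of corrected counts per cell was still higher in subcluster 1 than in the other T-cells in 5 of 5 calves, by 78.5 to 712.5. At middle depth it was higher in 3 of 3 calves, by 19 to 416.5. The part of this remainder in the row differences below was not tested. The comparisons below used 6328 rows, those with a value above 0 in 5% or more of the T-cells.

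CO replicate 2, PH replicate 1 and PH replicate 2 had at least 10 cells in each of the 4 subclusters, which gives 9 within-calf comparisons of subcluster 1 with subclusters 2, 3 and 4. In all 9, subcluster 1 was higher in 556 rows (8.79%) and lower in 192 rows (3.03%). At middle depth, where 7 comparisons had enough cells, the counts were 422 and 342. Small differences made up most of both sets: 31 rows were higher by more than 0.25 in all 9 comparisons, 6 by more than 0.5, and 2 rows were lower by more than 0.25. By the same count subcluster 2 had 206 rows higher and 173 lower, subcluster 3 had 267 and 123, and subcluster 4 had 170 and 601. The rows by more than 0.25 numbered 0, 22 and 13 higher in subclusters 2, 3 and 4. Subclusters 2 and 3 were counted over 10 comparisons in 4 calves, so their counts had 1 more comparison to pass. The subclusters were formed from these values, and the counts carry no test.

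CO replicate 1 and PH replicate 3 had not been used to pick these rows, though their cells took part in the clustering. In the 5 subcluster 1 cells of CO replicate 1, 409 of the 556 rows (73.6%) were higher than in the calf's other T-cells, against 46.5% of all rows. In the 13 cells of PH replicate 3 the count was 378 of 556 (68.0%), against 58.5% of all rows, with 3 other T-cells to compare with. The 31 rows with the bigger difference were higher in 30 of 31 cases in CO replicate 1 (median difference 0.76) and in 24 of 31 in PH replicate 3 (median 0.42). The 192 lower rows were lower in 157 cases in CO replicate 1 (81.8%, against 53.1% of all rows) and in 91 in PH replicate 3 (47.4%, against 34.1% of all rows).

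Row 11238 had the largest smallest difference of the higher rows. In subcluster 1 its mean value was 1.12 in CO replicate 1, 1.65 in CO replicate 2, and 1.71, 1.80 and 1.79 in PH replicates 1, 2 and 3. In subclusters 2, 3 and 4 of these calves the means ran from 0.19 to 0.83. The lowest subcluster 1 mean, from 5 cells, was still above the highest of the others, which belonged to subcluster 3 of PH replicate 2. Over all calves 220 of 270 subcluster 1 cells (81.5%) had a value above 0, against 31.7, 46.2 and 25.3% of the cells of subclusters 2, 3 and 4.

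Row 8377 followed. Its subcluster 1 means were 2.29 and 2.05 in the CO calves and 2.50, 1.96 and 2.1 in the PH calves. Subcluster 4 came next with 0.67, 1.08, 1.23, 1.11 and 1.66 in the same order, and subcluster 3 had at most 0.16. The row was above 0 in 91.9% of subcluster 1 cells, 48.5% of subcluster 2, 10.4% of subcluster 3 and 62.7% of subcluster 4. It therefore separated subcluster 1 most sharply from subcluster 3 and least from subcluster 4, whose mean in PH replicate 3, from 3 cells, was the closest to subcluster 1.

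Row 9367 was the first of the lower rows. Its subcluster 1 means were 0.75 and 0.59 in the CO calves and 0.66, 0.60 and 0.76 in the PH calves, and all other subcluster means lay between 0.82 and 1.68. In subcluster 1 it was seen in 50% of the cells. It was above 0 in 76.5, 82.1 and 80.7% of the cells of subclusters 2, 3 and 4. Row 3559 was less clear. Its subcluster 1 means were 0.28, 1.24, 0.98, 1.35 and 1.99 from CO replicate 1 to PH replicate 3. They lay below every other subcluster in 4 calves, but in PH replicate 3 the value of 1.99 exceeded the 1.86 of subcluster 4. This row was seen in 86.7% of subcluster 1 cells and in 89.6, 92.5 and 94.6% of the others, so that it differed in level more than in presence.

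**Figure D3:**
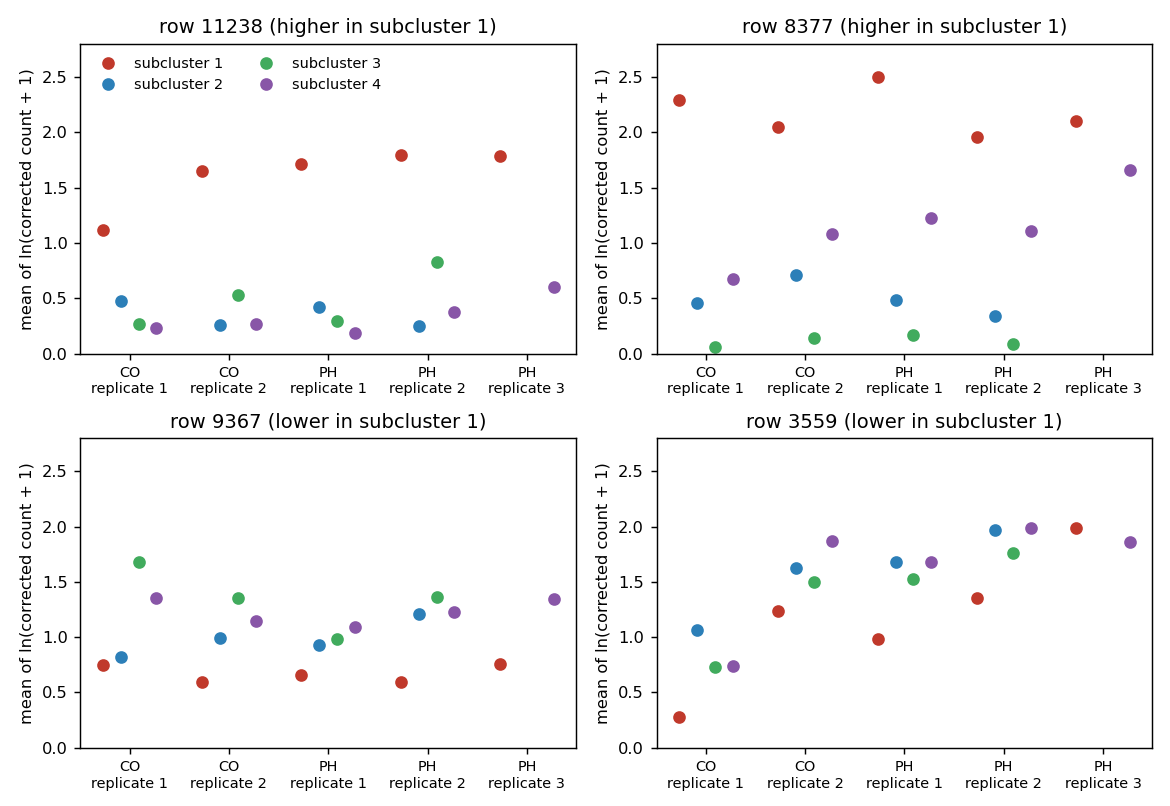
Mean value, ln(corrected count + 1), over the cells of each calf and subcluster for the 2 rows that were higher and the 2 that were lower in subcluster 1 by the widest margin; each point is 1 calf and subcluster. Rows 11238 and 8377 lie above and row 9367 below the other subclusters in all 5 calves, whereas row 3559 does so in 4, with 1.99 against 1.86 in PH replicate 3.

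The 31 higher rows were counted in single cells, as a description of the rows that had been chosen for being higher there. A subcluster 1 cell had a median of 25 of the 31 rows above 0, and a cell of subclusters 2, 3 and 4 had 12, 13 and 13. By calf the median in subcluster 1 was 25, 24, 26.5, 24 and 25 from CO replicate 1 to PH replicate 3, a narrow range beside the 10 to 17 of the other subclusters. Single cells overlapped: subcluster 1 cells had 10 to 31 of the rows and subcluster 3 cells 1 to 26. Of the 22 rows chosen in the same way for subcluster 3, a subcluster 1 cell had a median of 6 above 0, beside 5 and 4 in subclusters 2 and 4 and 16 in subcluster 3. Of the 13 rows of subcluster 4 it had 3, beside 3 and 4 in subclusters 2 and 3 and 9 in subcluster 4.

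Across all 6328 rows subcluster 1 was close to its neighbours. Pearson's r across rows between the mean profiles of a calf was 0.94 to 0.97 with subcluster 2, 0.94 to 0.96 with subcluster 3 and 0.95 to 0.96 with subcluster 4, over 3 calves. Rows share a library and a depth and are not replicates, and the 3 ranges overlapped, so no subcluster stood out as the nearest. After the calf mean over its subclusters was taken away, the remaining profile of subcluster 1 correlated between calves at r = 0.66 to 0.77 (3 pairs of calves). The calves were clustered together on expression, so a shared profile is part of how the subcluster was formed. With the remaining profiles of other subclusters in other calves r was -0.39 to -0.12; taking away a common mean pushes such values below 0.

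Each cell was then matched to the subcluster whose mean in the other calves it correlated with best. The subclusters were formed from the values of all calves together, so the matches describe the clustering and are no test of it. Of the 270 subcluster 1 cells, 234 (86.7%, 95% exact binomial interval 82.0 to 90.5%, for counting error only) matched subcluster 1. Of the rest, 20 matched subcluster 2, 16 matched subcluster 4 and 0 matched subcluster 3. By calf 5 of 5, 132 of 148, 29 of 36, 58 of 68 and 10 of 13 cells matched. The cells of subclusters 2, 3 and 4 matched their own subcluster in 84.3, 83.2 and 88.6% of cases. In the other direction, 16 of 268 subcluster 2 cells, 8 of 173 subcluster 3 cells and 6 of 166 subcluster 4 cells matched subcluster 1 best. Over all calves the cells that did not match had a median of 2293 UMIs, against 6718.5 in those that did. Calves differed here, with medians of 5142 UMIs for the 16 unmatched cells of CO replicate 2, 1232 and 2276.5 for the 7 and 10 of PH replicates 1 and 2, and 10968 for the 3 of PH replicate 3.

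A small set of cells stood apart within subcluster 1. In another clustering by the authors, at resolution 1.4, 1 cluster gathers shallow cells of all 4 subclusters. It held 14 of the 270 subcluster 1 cells (5.19%) and 19.3% of the other T-cells. The 14 cells came from 4 calves, 4 from CO replicate 2 and 6, 3 and 1 from PH replicates 1, 2 and 3. They had a median of 1148 UMIs and 16.9% mitochondrial UMIs, against 6674 UMIs and 3.23% in the other 256 cells. None matched subcluster 1 of the other calves (0 of 14, 5 to subcluster 2 and 9 to subcluster 4), whereas 234 of the other 256 did (91.4%). They had a median of 15.5 of the 31 rows above 0, against 25. In the same low-depth cluster 0 of 13 subcluster 3 cells matched their own subcluster. Of its subcluster 2 and 4 cells, 51 of 63 and 36 of 41 did. With the 270 cells cut by depth into 4 sets of 67 or 68, 67.6% of the shallowest set matched, then 94.0, 95.5 and 89.7% of the deeper ones. The shallowest set held 22 of the 36 unmatched cells and the deepest 7. Leaving the 14 cells and the like cells of the other subclusters out changed none of the 5 comparisons of cell measures between CO and PH in direction.

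**Figure D4:**
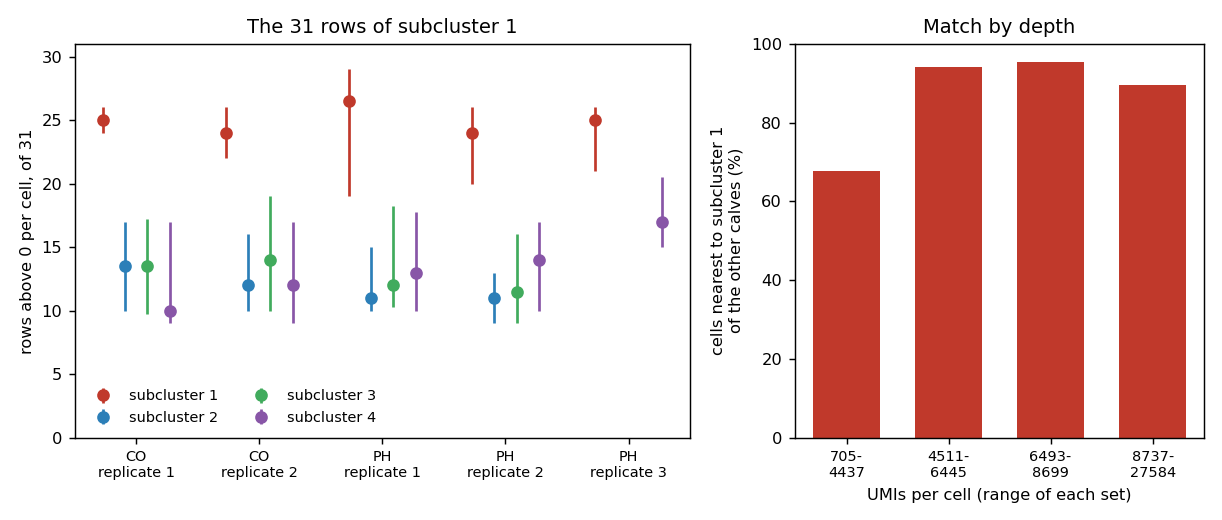
Left, number of the 31 rows above 0 per cell in each calf and subcluster (points are medians, bars run from the 25th to the 75th percentile). Right, share (%) of subcluster 1 cells that matched subcluster 1 of the other calves, in 4 sets of rising UMIs per cell. Subcluster 1 medians are 24 to 26.5 rows against 10 to 17 elsewhere, and the match is 67.6% in the shallowest set and 89.7% or more in the others.

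CO and PH calves were compared within subcluster 1 row by row, with the mean over the subcluster 1 cells of a calf as 1 value and limma over the 6328 rows. Of these, 2 rows passed an adjusted p of 0.05, 1 lower and 1 higher in PH (0.0316%). With the p left unadjusted, 95 rows were higher and 358 lower in PH at 0.05, and the median difference over all rows was -0.01. The calves of the 2 groups did not overlap in 441 rows that were higher in PH (6.97%) and 813 that were lower (12.8%), together 19.8% of the rows. With 2 against 3 calves, a row without a group difference separates in a given direction with a probability of up to 0.1. The 12.8% of rows lower in PH lay above that probability, and the 6.97% higher in PH lay below it. Rows share the same calves and are not replicates, so whether these counts exceed that probability was not tested. CO replicate 1, with 5 cells, entered with the same weight as CO replicate 2 with 148. Both rows that passed are named because they were the only ones, after their values had been seen.

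Row 1830 was lower in PH. Its subcluster 1 mean was 0.42 in CO replicate 1, 1.53 in CO replicate 2 and 0 in all 3 PH calves. The difference was -0.97 (SE 0.16, limma adjusted p = 2.81e-05), a number that depends on the added 1 of the log scale. The SEs here and below are limma's, which draw the spread of a row toward that of other rows. The CO calves had a mean of 0.97 ± 0.79 (SD, n = 2). In cells, the row was above 0 in 142 of 148 subcluster 1 cells of CO replicate 2 (95.9%), in 1 of 5 of CO replicate 1, and in 0 of 36, 0 of 68 and 0 of 13 of PH replicates 1, 2 and 3. By the limit of 3 counts, a count of 0 there allows shares of up to 8.33, 4.41 and 23.1% of the cells, for counting error only. The pattern was not particular to subcluster 1: in subclusters 2 to 4 it was above 0 in 237 of 289 cells of CO replicate 2 (82.0%), in 2 of 45 cells of CO replicate 1 (4.44%) and in 0 of 273 PH cells. The row thus set CO replicate 2 apart from the other 4 calves, CO replicate 1 included, in all its T-cells. The 2 CO calves differed from each other by more than CO replicate 1 differed from the PH calves.

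Row 16223 was higher in PH. Its subcluster 1 mean was 0.61 in CO replicate 1 and 1.5 in CO replicate 2, against 2.50, 1.78 and 1.94 in PH replicates 1, 2 and 3. The groups did not overlap, and the difference was 1.02 (SE 0.22, limma adjusted p = 0.0137). In subclusters 2 to 4 the row had means of 1.65 and 1.93 in CO replicates 1 and 2 and of 2.99, 2.23 and 1.81 in PH replicates 1, 2 and 3. Outside subcluster 1 the groups thus overlapped, but only through PH replicate 3, whose value came from 3 cells of subcluster 4. PH replicates 1 and 2 lay above both CO calves there too. In subcluster 2 alone the means were 1.97 and 1.90 in CO replicates 1 and 2, against 2.98 and 2.26 in PH replicates 1 and 2. In subcluster 3 these PH calves likewise lay above both CO calves. The higher values of PH replicates 1 and 2 were thus not particular to subcluster 1. The row stood higher in subclusters 2 to 4 than in subcluster 1 in 4 calves and lower in PH replicate 3. In subcluster 1 the row was above 0 in 115 of 117 PH cells (98.3%) and 141 of 153 CO cells (92.2%). In CO replicate 1 it was above 0 in 2 of 5 cells.

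Both calls depended on the calves and settings used. Without CO replicate 2 0 rows passed, and 0 passed as well with a filter of 20% in place of 5%, with no filter beyond 3 cells, with quantile normalization, or without limma's trend and robust settings. In cells of middle depth 0 passed too, but only 1 CO and 2 PH calves had enough cells there, so that the calves changed with the depth. The number of rows that passed ran up to 48 when calves were weighted by their cells. None of the 31 rows of subcluster 1 passed (0 of 31). At an unadjusted p of 0.05 there were 4 of 31 (12.9%), against 453 of all 6328 rows (7.16%). In PH 14 of the 31 were higher (45.2%, against 45.4% of all rows) and 17 lower, with a median difference of -0.03 beside -0.01 over all rows. Row 11238 differed by 0.38 (SE 0.22, limma adjusted p = 0.736), row 8377 by 0.02 (SE 0.19, adjusted p = 0.981), row 9367 by 0.0019 (SE 0.18, adjusted p = 0.998) and row 3559 by 0.68 (SE 0.21, adjusted p = 0.419).

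**Figure D5:**
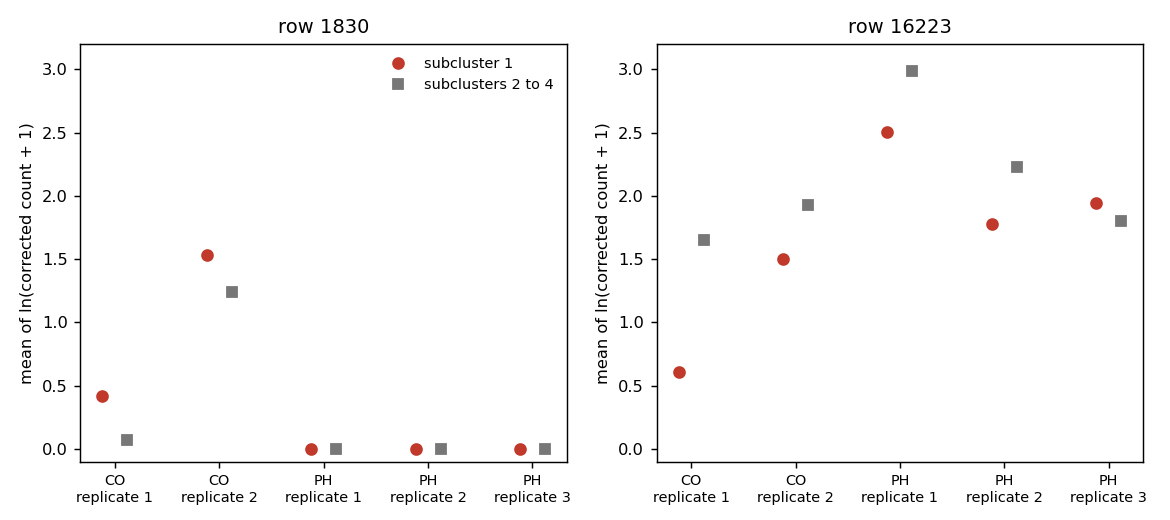
Mean value, ln(corrected count + 1), of rows 1830 and 16223 in each calf, in subcluster 1 (circles) and in subclusters 2 to 4 together (squares). Row 1830 is at 0 in the 3 PH calves and high only in CO replicate 2 (1.53 in subcluster 1), and row 16223 lies higher in each PH calf than in either CO calf in subcluster 1 (1.78 to 2.50 against 0.61 and 1.5).

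A calf-wide difference of equal size in all subclusters cancels when subcluster 1 is measured against the other subclusters of its own calf. In that comparison 0 of 6328 rows passed limma's adjusted p of 0.05 (0%), whereas without adjustment 121 rows were higher in PH and 60 lower at 0.05. Row 1830 then had a difference of -0.32 (SE 0.12) and row 16223 of 0.45 (SE 0.31), each with a limma adjusted p of 0.898. The count rested on the calves kept: 84 rows passed without PH replicate 1, 24 without PH replicate 2 and 48 with the replicate number as a block. PH replicate 3 was measured against the 3 cells of subcluster 4 alone, and the other 4 calves against the mean of 3 subclusters.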

How the data were processed

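Per the labels and the study's methods, the authors made 10x 3' libraries of dissociated dPAs, picked T-cells by general markers, and ran SCTransform and clustering. The submitters' processing notes name Cell Ranger 2.1.1, Seurat 4.0 and the build ARS-UCD1.2. How cells were filtered and doublets treated is not given in the sources used here. Doublets were not called again. Expression is deposited as natural logs, ln(corrected count + 1). The authors also deposited UMI and gene counts per cell (not normalized), the mitochondrial percent, and cell cycle scores with phase calls. UMI counts per row were not analysed here, so no thinning to 1 depth was possible.

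Cells were assigned to calves by the calf named with each cell (0 columns without a calf). Calves with at least 5 subcluster 1 cells entered CO against PH. Calf values were compared by two-sided exact permutation (scipy 1.17.1), and row means per calf with limma 3.58.1 in R 4.3.3 (trend, robust, Benjamini-Hochberg). The limma fit was also run on simulated data in which all calves had the same spread in a row. The real calf means rest on 5 to 148 cells, so that run does not show how the fit handles unequal calves. The second limma comparison subtracted the mean of the other subclusters with at least 3 cells. At most 2 higher and 2 lower rows, those with the largest smallest difference, were to be named. The members and lists were chosen with earlier results of these data known. A planned marker check was not run. Leaving out the low-depth cluster was an alternative added after the data had been seen.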

Additional observations from a re-analysis of the deposited data

How the results depend on the processing

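CO and PH share replicate numbers, and deviations of same-numbered calves correlated at r = 0.10 and -0.02 over 2 pairs. With 2 CO calves their deviations mirror each other, so these values cannot tell whether the numbers pair the calves. The main comparisons did not take the numbers to pair them. A replicate block gave 7 rows that differed in subcluster 1 (3 higher, 4 lower) and 48 against the other T-cells of the calf. Leaving out 1 calf at a time gave 0 to 3 rows in subcluster 1 and 0 to 84 against the other T-cells (84 without PH replicate 1, 24 without PH replicate 2, 0 without each other calf); where this left 1 CO calf, that calf was assumed to vary like the PH calves. In subcluster 1 limma gave 0 rows without CO replicate 2 (211 higher and 1156 lower at an unadjusted p of 0.05), 1 without CO replicate 1, 1 without PH replicate 2, 48 with cell numbers as weights (17 higher, 31 lower), 27 on the log2 scale with a pseudocount of 0.1 (23 higher, 4 lower) and 13 with a pseudocount of 1 (10 higher, 3 lower). It gave 0 with no filter beyond 3 cells (33 higher, 57 lower unadjusted), a filter of 20% (58 and 124), middle depth (11 and 26, 1 CO against 2 PH calves), quantile normalization (121 and 263) and without trend and robust (77 and 174). The cause was not tested.

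No cell measure passed the test under any alternative, at p values whose design allows little. The PH minus CO difference in median log2 depth ran from -0.69 to 0.086 when 1 calf was left out, turning positive without CO replicate 1. Over the same calves left out, the mitochondrial difference ran from -0.86 to 0.58, positive without CO replicate 2 (0.12), PH replicate 1 (0.02) and PH replicate 3; it was also positive at middle depth (0.0078) and as a mean (1.17). The G1 difference ran from -1.79 to 12.8 points with 1 calf left out, negative without CO replicate 2 and without PH replicate 3 (-0.775), and was 16.5 points at middle depth (1 CO against 2 PH calves). The difference in share ran from 5.20 to 35.2 points, and among subclusters 1 and 2 from 9.84 to 46.6 points, again with 1 calf left out. The rows set apart in subcluster 1 numbered 824 to 940 higher and 351 to 515 lower without 1 of 3 calves, since fewer comparisons had to be passed, 341 and 110 with a filter of 20%, which tests fewer rows, and 422 and 342 at middle depth over 7 comparisons. The limits are the 5 cells of CO replicate 1, the 16 T-cells of PH replicate 3 and the unnamed rows.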
